A study of Mus musculus with 6 samples.

Results

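White adipocyte and lipogenesis genes were followed in the mouse aorta as a listed group of 34 genes, which encode adipokines, lipid droplet proteins, enzymes and receptors of lipolysis, lipid uptake proteins, enzymes of fatty acid and triglyceride synthesis, and regulators of the adipocyte. The members were taken by symbol from a list whose rule uses no measured value, but which was drawn up with earlier results of these data known. All 34 were found among the 47643 genes of the count table, and all 34 passed the filter on low counts that left 16522 genes for testing. RNA had been sequenced from the entire aorta of Apoe-/- mice, which lack apolipoprotein E and develop high blood cholesterol and atherosclerosis. The EPO group (3 libraries) was injected intraperitoneally for 4 weeks with recombinant human erythropoietin, the hormone that drives red blood cell formation, at 5000 IU/kg/day, which the series' design calls a medium dose. The Vehicle group (3 libraries) was injected by the same route with saline for 4 weeks, and both groups carried the Apoe deletion. The labels give neither age nor sex, and do not say whether the fat around the vessel was removed or whether each library came from a different animal. The p-values therefore measure the spread between these libraries, which may in part be technical.

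White adipocytes store triglyceride in a large droplet that is coated by perilipins. They make fatty acids from glucose-derived citrate, take them up from lipoproteins, join them to a glycerol backbone, and release them again by lipolysis when catecholamines or fasting call for fuel. In mice the aorta is embedded in perivascular fat, which resembles brown fat along the thoracic part and is more like white fat along the abdominal part, and its adipocytes release hormones that act on the vessel wall. The nuclear receptor PPARγ, encoded by Pparg, and the C/EBP proteins switch on most of this programme.

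Promoter sequences are shown for Adipoq, Retn and Lep, the adipokines of the list, and for Fasn, the central enzyme of fatty acid synthesis, because Adipoq and Retn fell with EPO in the results that follow while Lep and Fasn did not pass the test. Each runs 5′ to 3′ from 250 bases before to 50 bases after the transcription start in RefSeq (build GRCm38.p6), and the capitals mark the motifs found by a search of both strands for CCAAT (the CCAAT box), TTGCGCAA (a palindrome bound by C/EBP proteins), AGGTCA (the core site of PPARγ and other nuclear receptors), CACGTG (an E-box), CACCCCAC (the core of a sterol element) and TATAAA (the TATA box). The Adipoq promoter lies at chr16:23146286-23146585 on the plus strand, the Lep promoter at chr6:29059971-29060270 on the plus strand, the Retn promoter at chr8:3655520-3655819 on the plus strand and the Fasn promoter at chr11:120824498-120824797 on the minus strand.
Adipoq: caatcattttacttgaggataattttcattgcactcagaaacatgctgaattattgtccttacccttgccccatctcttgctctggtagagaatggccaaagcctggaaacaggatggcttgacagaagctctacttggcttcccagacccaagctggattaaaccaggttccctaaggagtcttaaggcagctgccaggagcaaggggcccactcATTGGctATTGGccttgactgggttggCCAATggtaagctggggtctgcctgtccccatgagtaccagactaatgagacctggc
Lep: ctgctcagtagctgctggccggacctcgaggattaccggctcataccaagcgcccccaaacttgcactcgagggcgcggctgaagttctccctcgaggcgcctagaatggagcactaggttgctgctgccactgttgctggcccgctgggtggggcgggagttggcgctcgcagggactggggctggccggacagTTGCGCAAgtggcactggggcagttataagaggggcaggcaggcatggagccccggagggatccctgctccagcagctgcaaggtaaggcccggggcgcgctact
Retn: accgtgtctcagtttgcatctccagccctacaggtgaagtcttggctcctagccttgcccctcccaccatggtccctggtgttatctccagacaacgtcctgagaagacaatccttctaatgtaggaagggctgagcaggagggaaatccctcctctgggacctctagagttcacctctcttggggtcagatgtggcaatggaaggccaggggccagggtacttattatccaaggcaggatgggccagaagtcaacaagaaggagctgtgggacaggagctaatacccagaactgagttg
Fasn: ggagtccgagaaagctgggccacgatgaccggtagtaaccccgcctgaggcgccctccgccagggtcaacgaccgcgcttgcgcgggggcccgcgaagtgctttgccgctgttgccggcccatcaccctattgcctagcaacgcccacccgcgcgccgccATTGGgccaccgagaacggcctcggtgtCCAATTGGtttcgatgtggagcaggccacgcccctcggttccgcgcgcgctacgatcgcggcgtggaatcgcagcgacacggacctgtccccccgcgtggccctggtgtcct

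The Adipoq window held 3 CCAAT boxes. The Fasn window held 3 CCAAT matches, of which those at -62 and -59 overlap in the stretch CCAATTGG, read on opposite strands. The Lep window held the C/EBP palindrome 55 bases before the start, and the Retn window held none of the motifs searched. A promoter was matched for 24 of the 34 genes, with 32 promoters between them. CCAAT occurred in the promoters of 45.8% of these genes and of 41.1% of all 27025 genes with a promoter, AGGTCA in 25% against 18.1%, CACGTG in 8.33% (Lipe and Mlxipl) against 8.09%, and TATAAA in 12.5% against 15.7%. TTGCGCAA was found in 4.17% (Lep alone) against 0.207%, CACCCCAC in none against 3.30%, and the full direct repeat of the PPAR and RXR pair in none against 0.0481%. These matches describe letters in the windows and not bound sites.

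The libraries held 28798632 to 38502430 counts with EPO and 23278649 to 27904322 with Vehicle. Levels are given as CPM, counts relative to the size of the library, scaled between libraries by the trimmed mean of M values (TMM), and a gene was called at an edgeR quasi-likelihood adjusted p under 0.05 over all 16522 tested genes. Apoe, whose knockout the labels give for both groups, had 1385, 335 and 463 counts in EPO 1, 2 and 3, against 176, 516 and 494 in Vehicle 1, 2 and 3 (edgeR adjusted p = 0.512), and counts over a whole gene cannot tell a transcript with a deleted part from an intact one. The libraries also differed in other genes. The 8 marker genes of smooth muscle took 0.714%, 0.84% and 1.01% of the counts in EPO 1, 2 and 3, against 2.99%, 2.17% and 2.72% in Vehicle 1, 2 and 3. Skeletal muscle fibre markers took 0.112%, 0.29% and 0.0349% of the counts in EPO 1, 2 and 3, against 0.00159%, 0.000766% and 0.0015% in Vehicle 1, 2 and 3. Haemoglobin and mitochondrial genes, 48 in all, took 3.42%, 4.22% and 3.14% of the counts in EPO 1, 2 and 3, against 6.48%, 6.83% and 4.62% in Vehicle 1, 2 and 3. The sum was lower in every EPO library and, like most adipocyte genes, highest in Vehicle 2 and lowest in Vehicle 3 of the Vehicle group. It pools both kinds of gene and does not show the direction of haemoglobin alone. EPO 1 and EPO 2 held more of the skeletal muscle signal than EPO 3, and the count of called members is also given below without both of them. EPO 3 still held more of it than any Vehicle library, so that fit is not free of the muscle signal.

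Transcripts of the adipocyte list were less abundant with EPO. Of the 34 genes, 16 fell, none rose and 18 were not called, against a background of 10.1% of all tested genes lower and 12.9% higher with EPO, or 23% called in either direction. At least 2-fold lower were 14 of the 16. The median log2 fold change of the 34 genes was -1.17, beside 0.01 for all tested genes, and 33 of the 34 values were negative. No member with a positive value had an unadjusted p under 0.05, and 6 members had an edgeR adjusted p between 0.05 and 0.1. In bulk tissue, fewer adipocytes and less of these RNAs per adipocyte cannot be told apart. The labels do not say whether the fat around the vessel was removed, so its amount in each sample is also not known.

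**Figure D1:**
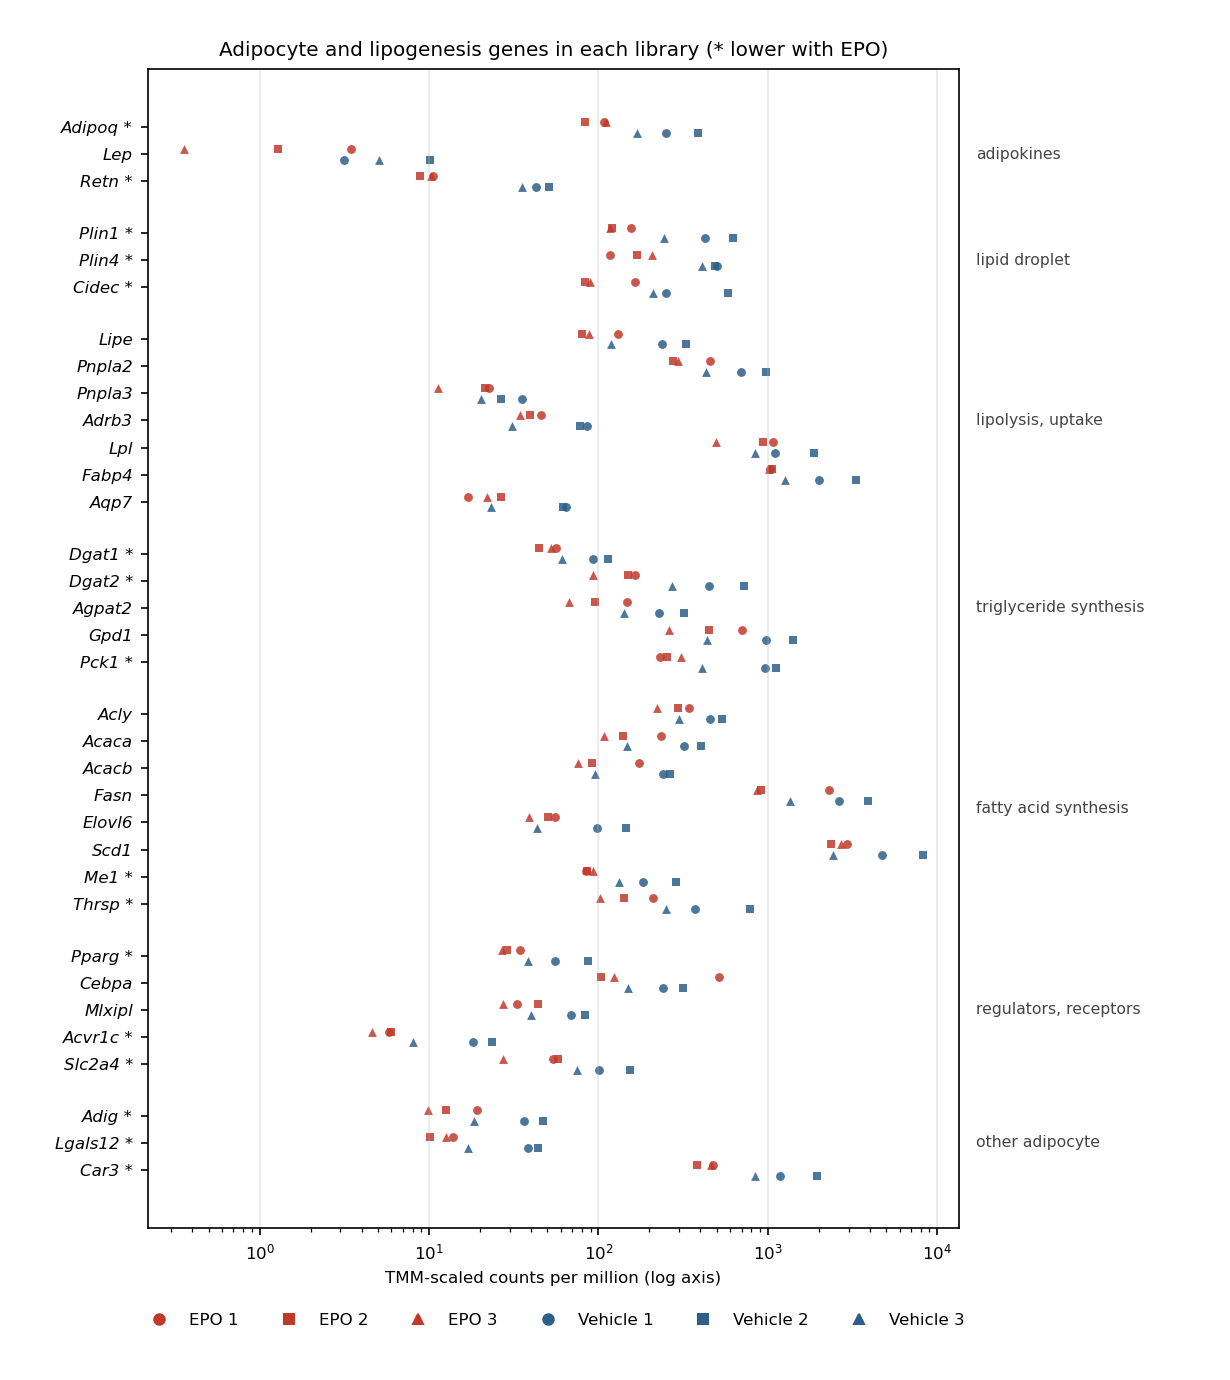
Level of each of the 34 genes in every library, in TMM-scaled CPM on a log axis, with EPO libraries in red above Vehicle libraries in blue and a star on the 16 genes called lower with EPO. In 32 genes the 3 EPO points lie left of both Vehicle 1 and Vehicle 2, while Vehicle 3 often lies among or beside the EPO points. The share of all tested genes with this order was not counted.

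Counted together, the 34 genes took 1.13%, 0.882% and 0.834% of the counts in EPO 1, 2 and 3, against 1.89%, 2.95% and 1.15% in Vehicle 1, 2 and 3. The mean share was 0.949% ± 0.158 with EPO and 2.0% ± 0.906 with Vehicle (SD, n = 3 each). The share in every EPO library was below the lowest Vehicle library, but the gap between EPO 1 and Vehicle 3 was small, and Vehicle 2 held well over the share of Vehicle 3. Every EPO library lay below every Vehicle library in 16 of the 34 genes, against 21% of all tested genes, and in none did every EPO library lie above, against 22.9% of all tested genes. Without Vehicle 2 the difference in the mean share was -0.572 percentage points, against -1.05 with all 6 libraries.

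**Figure D2:**
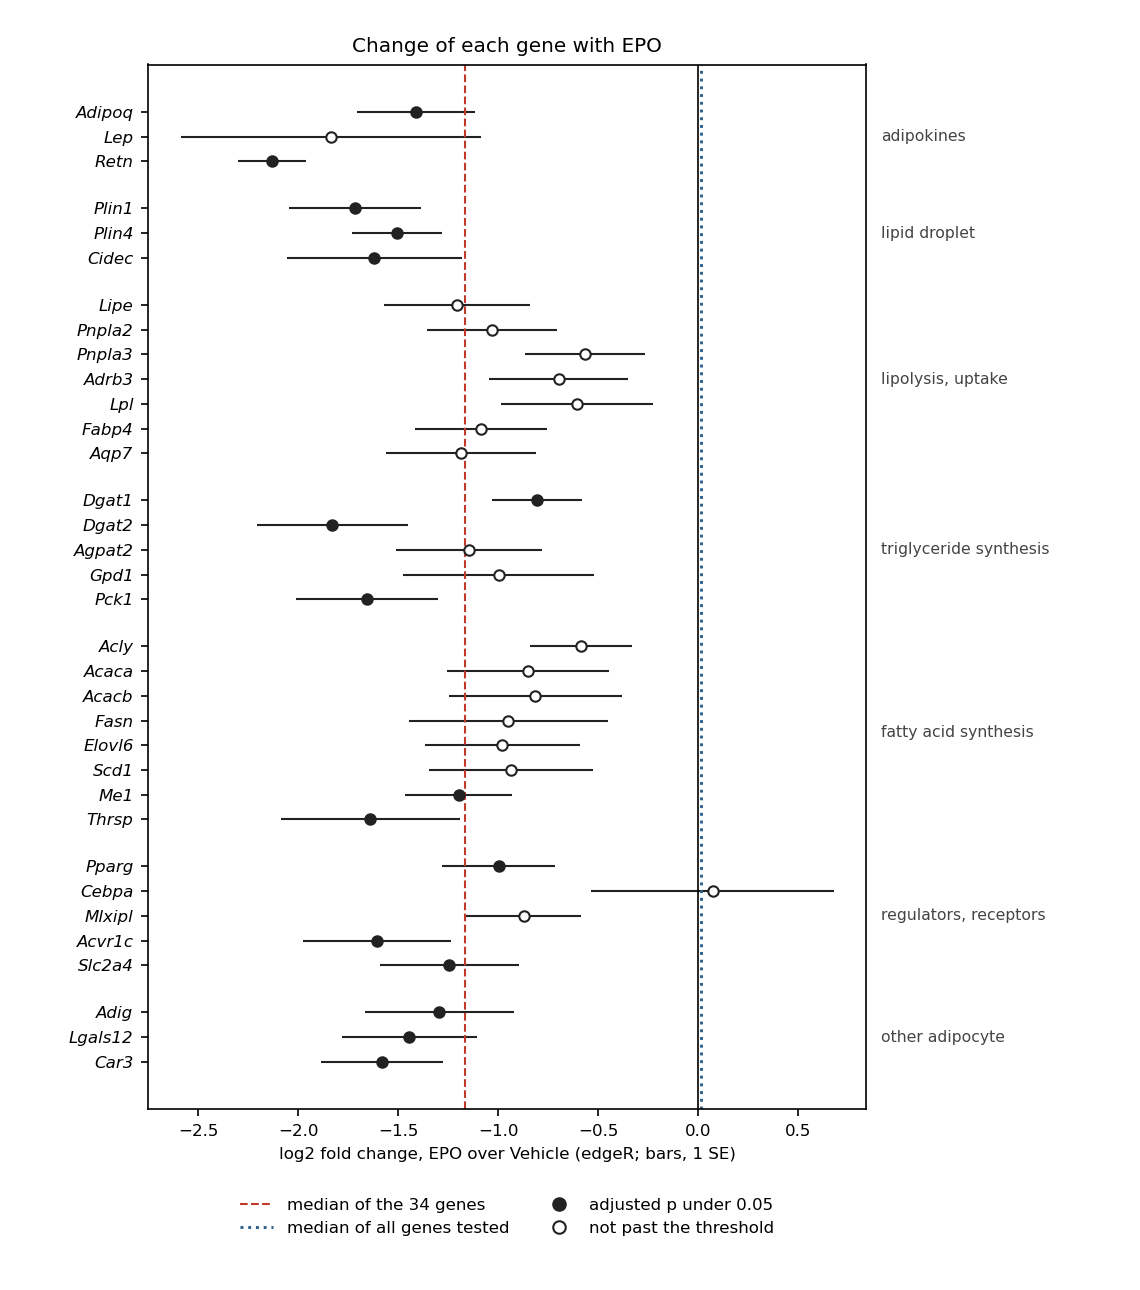
Log2 fold change of each gene, EPO over Vehicle, from edgeR, with bars of 1 SE, filled points for an adjusted p under 0.05 and open points for the rest. The dashed line marks the median of the 34 genes (-1.17) and the dotted line that of all tested genes (0.01), and only Cebpa lies right of zero.

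Both adipokines with substantial expression fell. Retn (resistin, ENSMUSG00000012705, chromosome 8, 3655770 to 3660110), a hormone made by white adipocytes in mice, had 10.5, 8.86 and 10.2 CPM in EPO 1, 2 and 3, against 42.9, 51.4 and 35.6 CPM in Vehicle 1, 2 and 3. The groups were far apart and the libraries within each were close. The means were 9.86 ± 0.882 CPM with EPO and 43.3 ± 7.92 CPM with Vehicle (SD, n = 3 each), a 4.39-fold difference (log2 fold change -2.13, SE 0.17, edgeR adjusted p = 0.00105). Adipoq (adiponectin, ENSMUSG00000022878, chromosome 16, 23146536 to 23158028), an adipocyte hormone that raises insulin sensitivity, had 108, 83.3 and 111 CPM in EPO 1, 2 and 3, against 249.7, 386 and 169 CPM in Vehicle 1, 2 and 3. The EPO libraries were close together and the lowest Vehicle library lay above all of them. Adipoq fell 2.66-fold (log2 fold change -1.41, SE 0.29, edgeR adjusted p = 0.015), a call that was lost without EPO 2 (edgeR adjusted p = 0.0505).

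Lep (leptin), the satiety hormone that reports fat mass, was low in every library. It had 3.46, 1.29 and 0.361 CPM in EPO 1, 2 and 3, against 3.17, 10.1 and 5.07 CPM in Vehicle 1, 2 and 3. EPO 1 lay above Vehicle 1, so the groups overlapped, and EPO 3 lay well below the other EPO libraries. The change was not called (log2 fold change -1.84, SE 0.75, edgeR adjusted p = 0.119), but it passed without EPO 1 (edgeR adjusted p = 0.0334). The Retn and Adipoq promoters shown above therefore belong to genes that fell, and the Lep promoter to a gene that was not called with all 6 libraries.

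All 3 lipid droplet proteins fell. Plin1 (perilipin 1, ENSMUSG00000030546, chromosome 7, 79720218 to 79732903) coats the adipocyte droplet and restrains lipases until it is phosphorylated. It had 157, 120.4 and 117 CPM in EPO 1, 2 and 3, against 426, 627 and 244 CPM in Vehicle 1, 2 and 3, and every EPO library lay below every Vehicle library. The means were 131 ± 21.9 CPM with EPO and 432 ± 191 CPM with Vehicle (SD, n = 3 each), a 3.29-fold difference (log2 fold change -1.72, SE 0.33, edgeR adjusted p = 0.0111). Plin4 (perilipin 4, ENSMUSG00000002831, chromosome 17, 56100591 to 56109803), which covers small and growing droplets, had 117, 169 and 207 CPM in EPO 1, 2 and 3, against 501, 491 and 410.2 CPM in Vehicle 1, 2 and 3. Its Vehicle libraries were closer together than those of most members, and Plin4 fell 2.84-fold (log2 fold change -1.51, SE 0.22, edgeR adjusted p = 0.00483). Cidec, which transfers lipid between droplets so that they fuse into a large one, had 165, 83.9 and 89.8 CPM in EPO 1, 2 and 3, against 250.3, 581 and 209.9 CPM in Vehicle 1, 2 and 3. Vehicle 2 stood above the other Vehicle libraries, and Cidec fell 3.07-fold (log2 fold change -1.62, SE 0.44, edgeR adjusted p = 0.0356), a call that was lost without EPO 2, EPO 3, Vehicle 1 or Vehicle 2 (edgeR adjusted p from 0.0604 to 0.101). The 3 genes together took 0.0405% ± 0.00209 with EPO and 0.125% ± 0.0403 with Vehicle of all counts (SD, n = 3 each).

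None of the 7 genes of lipolysis, lipid uptake and lipid carriage was called, although all 7 fold changes were negative and their median log2 value was -1.03. Pnpla2 (adipose triglyceride lipase), which takes the first fatty acid off a triglyceride, had 457, 277 and 296 CPM in EPO 1, 2 and 3, against 697, 973 and 433 CPM in Vehicle 1, 2 and 3 (log2 fold change -1.03, SE 0.32, edgeR adjusted p = 0.0575). Lipe (hormone-sensitive lipase), which takes the next, had 130.4, 79.7 and 88 CPM in EPO 1, 2 and 3, against 238, 330.1 and 119 CPM in Vehicle 1, 2 and 3 (log2 fold change -1.21, SE 0.37, edgeR adjusted p = 0.0508). In both, EPO 1 lay above Vehicle 3 and the other EPO libraries below every Vehicle library. Pnpla2 passed without EPO 1 or Vehicle 3 (edgeR adjusted p from 0.0293 to 0.0358), and Lipe passed without EPO 1 or Vehicle 3 (edgeR adjusted p from 0.0155 to 0.0455).

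Fabp4, the fatty acid carrier of the adipocyte that endothelium and macrophages also express, had 1025, 1059.8 and 1009.5 CPM in EPO 1, 2 and 3, against 1999, 3304 and 1268 CPM in Vehicle 1, 2 and 3. The EPO libraries were nearly equal and lay below every Vehicle library, yet the change was not called (log2 fold change -1.09, SE 0.33, edgeR adjusted p = 0.0512), and it passed without Vehicle 3 (edgeR adjusted p = 0.0203). Lpl, the lipase that frees fatty acids from lipoproteins and that macrophages and muscle also make, had 1076, 936 and 493 CPM in EPO 1, 2 and 3, against 1098, 1879 and 835 CPM in Vehicle 1, 2 and 3. EPO 1 and EPO 2 lay between Vehicle 3 and Vehicle 1, and the edgeR adjusted p was 0.288. Aqp7, the channel through which glycerol leaves the adipocyte, had 17.1, 26.5 and 22.1 CPM in EPO 1, 2 and 3, against 64.4, 62.1 and 23.1 CPM in Vehicle 1, 2 and 3 (edgeR adjusted p = 0.0578), and passed without Vehicle 3 (edgeR adjusted p = 0.0107). Adrb3, the beta-adrenergic receptor that starts lipolysis in rodent fat, had 46.2, 39.5 and 34.2 CPM in EPO 1, 2 and 3, against 85.6, 77.9 and 31.1 CPM in Vehicle 1, 2 and 3 (edgeR adjusted p = 0.187), and passed without Vehicle 3 (edgeR adjusted p = 0.0138). For both of these genes Vehicle 3 sat at the level of the EPO libraries and Vehicle 1 and 2 well above. Pnpla3, a relative of Pnpla2 that binds the droplet, had 22.7, 21.4 and 11.3 CPM in EPO 1, 2 and 3, against 35.4, 26.6 and 20.2 CPM in Vehicle 1, 2 and 3 (edgeR adjusted p = 0.215).

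Of the 5 genes that build the glycerol backbone and the triglyceride, 3 fell. Dgat2 (diacylglycerol acyltransferase 2, ENSMUSG00000030747, chromosome 7, 99153658 to 99182719) adds the last fatty acid, mainly one made in the cell itself. It had 166, 149 and 92.8 CPM in EPO 1, 2 and 3, against 447, 727 and 273 CPM in Vehicle 1, 2 and 3. Every EPO library was below every Vehicle library, with means of 136 ± 38.1 CPM with EPO and 482 ± 229 CPM with Vehicle (SD, n = 3 each), a 3.56-fold difference (log2 fold change -1.83, SE 0.38, edgeR adjusted p = 0.0144). Dgat1, an unrelated enzyme for the same step that mainly uses fatty acids from outside the cell, had 56, 44.7 and 52.5 CPM in EPO 1, 2 and 3, against 93.4, 114 and 60.8 CPM in Vehicle 1, 2 and 3. It fell 1.75-fold (log2 fold change -0.81, SE 0.23, edgeR adjusted p = 0.040), and the call was lost without EPO 1, EPO 2, EPO 3, Vehicle 1 or Vehicle 2 (edgeR adjusted p from 0.0529 to 0.112). Pck1, which adipocytes use to make glycerol phosphate when glucose is short, had 230.0, 255 and 307 CPM in EPO 1, 2 and 3, against 967, 1116 and 409.7 CPM in Vehicle 1, 2 and 3. It fell 3.15-fold (log2 fold change -1.66, SE 0.36, edgeR adjusted p = 0.0165), and the call was lost without EPO 2, Vehicle 1 or Vehicle 2 (edgeR adjusted p from 0.0531 to 0.0617). In contrast to most members, Pck1 was highest in EPO 3 and lowest in EPO 1 among the EPO libraries.

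Agpat2, which adds the second fatty acid to the backbone and whose loss causes lipodystrophy in mice and in humans, had 148, 95.7 and 66.8 CPM in EPO 1, 2 and 3, against 228, 319 and 141 CPM in Vehicle 1, 2 and 3. EPO 1 lay above Vehicle 3 and the change was not called (log2 fold change -1.15, SE 0.37, edgeR adjusted p = 0.0591), but it passed without EPO 1 or Vehicle 3 (edgeR adjusted p from 0.0297 to 0.0375). Gpd1, which reduces dihydroxyacetone phosphate to glycerol phosphate, had 699.8, 448 and 260.1 CPM in EPO 1, 2 and 3, against 970.5, 1402 and 438 CPM in Vehicle 1, 2 and 3 (log2 fold change -1.0, SE 0.48, edgeR adjusted p = 0.173). Its EPO values spread about as widely, in proportion, as its Vehicle values.

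Among the 8 genes of fatty acid synthesis 2 fell, Me1 and Thrsp, and the core enzymes were not called. Me1 (malic enzyme), which supplies NADPH for the synthesis, had 83.9, 86.2 and 93.1 CPM in EPO 1, 2 and 3, against 183, 289 and 132 CPM in Vehicle 1, 2 and 3. The EPO libraries were nearly equal, and Me1 fell 2.29-fold (log2 fold change -1.20, SE 0.27, edgeR adjusted p = 0.0189), a call that was lost without EPO 2 or Vehicle 1 (edgeR adjusted p from 0.052 to 0.057). Thrsp (Spot 14), a nuclear protein that promotes lipogenic gene expression, had 209, 142 and 102 CPM in EPO 1, 2 and 3, against 374, 786 and 249 CPM in Vehicle 1, 2 and 3. It fell 3.12-fold (log2 fold change -1.64, SE 0.45, edgeR adjusted p = 0.0366), and the call was lost without EPO 2, EPO 3, Vehicle 1 or Vehicle 2 (edgeR adjusted p from 0.0722 to 0.0968).

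Fasn (fatty acid synthase), which makes palmitate, had 2303, 912 and 863 CPM in EPO 1, 2 and 3, against 2647, 3877 and 1348 CPM in Vehicle 1, 2 and 3. EPO 1 stood just below Vehicle 1 and apart from EPO 2 and EPO 3, which lay below every Vehicle library. The change was not called (log2 fold change -0.95, SE 0.50, edgeR adjusted p = 0.208), but it passed without EPO 1 (edgeR adjusted p = 0.0435). Scd1 (stearoyl-CoA desaturase 1), which puts the double bond into stearate and palmitate, had 2934, 2368 and 2696 CPM in EPO 1, 2 and 3, against 4696, 8184 and 2426 CPM in Vehicle 1, 2 and 3. Vehicle 3 lay within the EPO libraries and Vehicle 2 far above them (log2 fold change -0.94, SE 0.41, edgeR adjusted p = 0.14), and Scd1 passed without Vehicle 3 (edgeR adjusted p = 0.0373). Acly, which cleaves citrate to acetyl-CoA, had 344, 294 and 221 CPM in EPO 1, 2 and 3, against 456, 537 and 299 CPM in Vehicle 1, 2 and 3 (edgeR adjusted p = 0.137). Acaca and Acacb are the acetyl-CoA carboxylases, whose product malonyl-CoA feeds synthesis and blocks the entry of fatty acids into mitochondria. Acaca had 234, 139.8 and 107 CPM in EPO 1, 2 and 3, against 318, 401 and 148 CPM in Vehicle 1, 2 and 3 (edgeR adjusted p = 0.172). Acacb had 174, 91.8 and 75.7 CPM in EPO 1, 2 and 3, against 239.6, 265 and 96.1 CPM in Vehicle 1, 2 and 3 (edgeR adjusted p = 0.214). Elovl6, which extends palmitate to stearate, had 55.7, 50.5 and 39 CPM in EPO 1, 2 and 3, against 98.2, 145 and 43.7 CPM in Vehicle 1, 2 and 3 (edgeR adjusted p = 0.109), and passed without Vehicle 3 (edgeR adjusted p = 0.0152). In Acly, Acaca, Acacb and Elovl6, EPO 1 lay between Vehicle 3 and Vehicle 1, and EPO 3 lay below every Vehicle library. As a sum the 8 genes took 0.59%, 0.418% and 0.429% of the counts in EPO 1, 2 and 3, against 0.891%, 1.44% and 0.492% in Vehicle 1, 2 and 3.

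Of the 5 regulators, receptors and transporters 3 fell. Pparg, the regulator named above, had 34.6, 28.7 and 26.8 CPM in EPO 1, 2 and 3, against 55.8, 86.3 and 38.2 CPM in Vehicle 1, 2 and 3. Every EPO library was below every Vehicle library, and Pparg fell 2.0-fold (log2 fold change -1.0, SE 0.28, edgeR adjusted p = 0.0403), but the call was lost without EPO 1, EPO 2, EPO 3, Vehicle 1 or Vehicle 2 (edgeR adjusted p from 0.0526 to 0.105). Slc2a4 (GLUT4), the insulin-regulated glucose transporter of fat and muscle, had 53.7, 57.7 and 27.2 CPM in EPO 1, 2 and 3, against 100.2, 154 and 74.4 CPM in Vehicle 1, 2 and 3. It fell 2.37-fold (log2 fold change -1.24, SE 0.35, edgeR adjusted p = 0.0394), a call that was lost without EPO 1, EPO 2, EPO 3, Vehicle 1 or Vehicle 2 (edgeR adjusted p from 0.0565 to 0.112). Acvr1c (ALK7), a TGF-β family receptor that restrains lipolysis in mouse fat, had 5.77, 5.94 and 4.63 CPM in EPO 1, 2 and 3, against 18.2, 23.6 and 8.04 CPM in Vehicle 1, 2 and 3. It fell 3.05-fold (log2 fold change -1.61, SE 0.37, edgeR adjusted p = 0.021), a call that was lost without EPO 2, EPO 3, Vehicle 1 or Vehicle 2 (edgeR adjusted p from 0.0533 to 0.0705). Skeletal muscle also expresses Slc2a4, and its markers were higher in the EPO libraries; its part in the Slc2a4 value was not tested.

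Mlxipl (ChREBP), which turns on glycolytic and lipogenic genes when glucose is plentiful, had 33, 44.3 and 27.5 CPM in EPO 1, 2 and 3, against 68.6, 83.4 and 40.1 CPM in Vehicle 1, 2 and 3. It was not called (log2 fold change -0.87, SE 0.29, edgeR adjusted p = 0.0642), but it passed without Vehicle 3 (edgeR adjusted p = 0.0222). Cebpa, a C/EBP protein of adipocytes that myeloid cells also express, was the 1 member without a negative value. It had 513, 104 and 124 CPM in EPO 1, 2 and 3, against 241, 315 and 149.8 CPM in Vehicle 1, 2 and 3. EPO 1 stood above every other library, while EPO 2 and EPO 3 lay below Vehicle 1, 2 and 3 (log2 fold change 0.07, SE 0.61, edgeR adjusted p = 0.948). Without EPO 1 the log2 fold change of Cebpa was -1.05, with an edgeR adjusted p of 0.0516. The macrophage markers, 12 genes, were also highest in EPO 1, with 0.815%, 0.447% and 0.406% of the counts in EPO 1, 2 and 3, against 0.188%, 0.344% and 0.388% in Vehicle 1, 2 and 3, and their part in the Cebpa value was not tested.

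The other 3 adipocyte proteins fell. Car3 (carbonic anhydrase 3, ENSMUSG00000027559, chromosome 3, 14863512 to 14872523), abundant in mouse fat and slow skeletal muscle, had 476, 384 and 465 CPM in EPO 1, 2 and 3, against 1174, 1947 and 844 CPM in Vehicle 1, 2 and 3. The means were 442 ± 50.4 CPM with EPO and 1322 ± 566 CPM with Vehicle (SD, n = 3 each), a 2.99-fold difference (log2 fold change -1.58, SE 0.31, edgeR adjusted p = 0.0117). Lgals12 (galectin-12), which adipocytes carry on their droplets, had 13.8, 10.2 and 12.6 CPM in EPO 1, 2 and 3, against 38.5, 44.2 and 17 CPM in Vehicle 1, 2 and 3. It fell 2.72-fold (log2 fold change -1.44, SE 0.34, edgeR adjusted p = 0.0219), a call that was lost without EPO 2, EPO 3, Vehicle 1 or Vehicle 2 (edgeR adjusted p from 0.0536 to 0.0759). Adig (adipogenin), a small membrane protein that promotes droplet formation, had 19.1, 12.5 and 9.83 CPM in EPO 1, 2 and 3, against 36.2, 47.4 and 18.4 CPM in Vehicle 1, 2 and 3. EPO 1 lay just above Vehicle 3, so Adig was the 1 called gene whose groups overlapped. It fell 2.45-fold (log2 fold change -1.30, SE 0.37, edgeR adjusted p = 0.0433), and the call was lost without EPO 2, EPO 3, Vehicle 1 or Vehicle 2 (edgeR adjusted p from 0.109 to 0.128).

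Per kilobase of annotated exon, with the exons of all transcripts joined, Scd1 had the highest means. These were 545 with EPO and 1043 with Vehicle in CPM per kb, and Fabp4 followed with 229.8 with EPO and 488 with Vehicle. The joined exons of Fabp4, 4489 bases, cover its whole span from 10204088 to 10208576, so introns of shorter transcripts are counted in its length. Its value per kb may therefore be too low, and its order against Scd1 is uncertain. Gpd1 had 158 with EPO and 316 with Vehicle and Car3 154 with EPO and 461 with Vehicle in the same unit. Gpd1 and Car3 were next to each other with EPO, where their library values overlapped, and Car3 was ahead of Gpd1 in the Vehicle mean. The lowest members were Acvr1c, with 0.586 with EPO and 1.79 with Vehicle, and Lep, with 0.508 with EPO and 1.82 with Vehicle CPM per kb.

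The Vehicle libraries differed among themselves in a shared way. Vehicle 2 was the highest of them in 30 of the 34 genes and Vehicle 3 the lowest in 33, and 29 genes had the order Vehicle 2, Vehicle 1, Vehicle 3. Set against the Vehicle mean, the median log2 level of the 34 genes was -0.83, -1.24 and -1.39 in EPO 1, 2 and 3, against 0.02, 0.50 and -0.76 in Vehicle 1, 2 and 3. The median of Vehicle 3 was thus close to that of EPO 1. In 32 genes every EPO library was below both Vehicle 1 and Vehicle 2. Vehicle 3 was set aside here after it was seen to be low, which makes the groups easier to separate in any gene. The share of all tested genes with this order was not counted, so the 32 cannot be judged against a background. Of the 18 genes whose groups overlapped, 16 did so through Vehicle 3 alone, and the exceptions were Lep and Cebpa. EPO 1 was the highest EPO library in 25 genes and lay above Vehicle 3 in 15 of the 18.

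The number of members called changed with the libraries in the fit. It was 25 without Vehicle 3 and 18 without EPO 1, where 1245 and 2016 of all genes were called lower, against 16 members and 1671 genes with all 6 libraries. It was 5 without EPO 2, 8 without EPO 3, 6 without Vehicle 1 and 7 without Vehicle 2, where 941, 1162, 699 and 954 of all genes were called lower. The calls over all genes thus also became fewer in those 4 fits, while without Vehicle 3 the members called became more and the genes called fewer. Retn, Plin1, Plin4, Dgat2 and Car3 kept the call with each of the 6 libraries left out in turn, and the other 11 called genes lost it at least once. Without both EPO 1 and EPO 2, which leaves 1 EPO library whose spread is assumed to be that of the others, 2 genes, Retn and Plin4, were called.

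**Figure D3:**
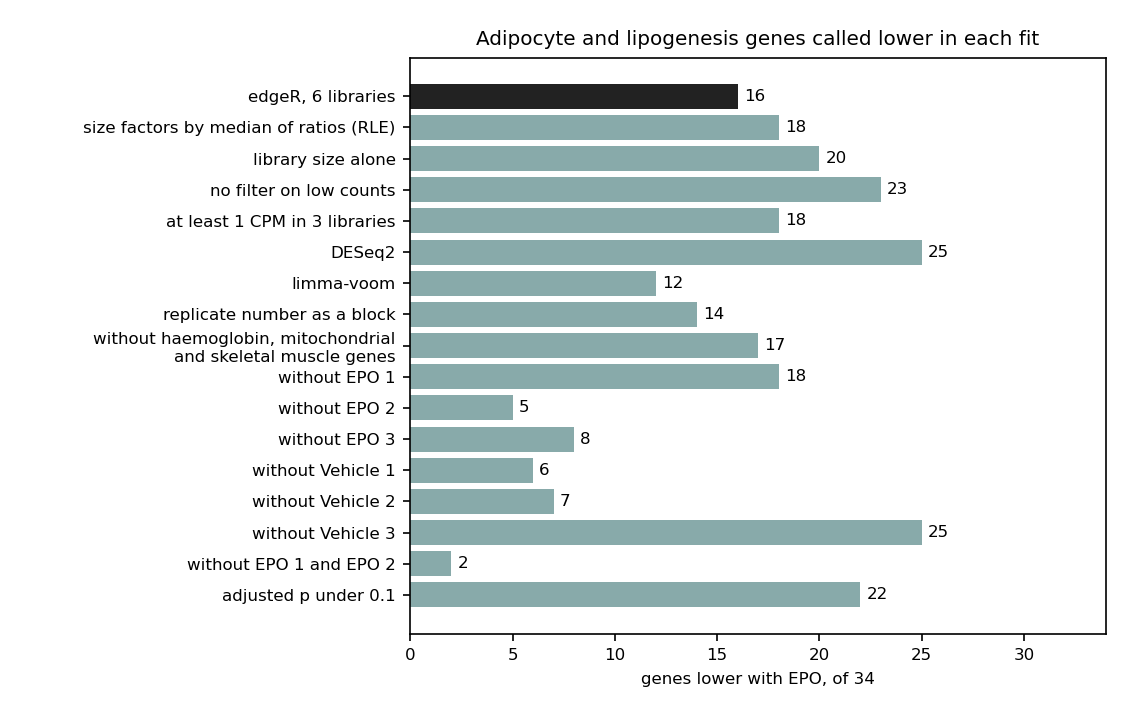
Number of the 34 genes called lower with EPO in each fit, with the edgeR fit on 6 libraries in black (16 genes) and each other fit or set of libraries below it. DESeq2 also called more of all genes lower, 2240 against 1671 in the edgeR fit on 6 libraries. The counts run between 2 without EPO 1 and EPO 2 and 25 with DESeq2 or without Vehicle 3.

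The members were also set against each other. Each was divided by Adipoq within the same library, on a log2 scale, which removes a factor common to all of them. Of the other 33 genes, 6 then lay above the Vehicle libraries in every EPO library, namely Fabp4, Dgat1, Acly, Scd1, Pparg and Cebpa, against a background of 75% of all tested genes. Retn and Car3 lay below in every EPO library, against 0.309% of all tested genes, and 25 overlapped. The log2 ratio of Retn to Adipoq was -3.36, -3.23 and -3.44 in EPO 1, 2 and 3, against -2.54, -2.91 and -2.25 in Vehicle 1, 2 and 3. That of Scd1 was 4.76, 4.83 and 4.60 in EPO 1, 2 and 3, against 4.23, 4.41 and 3.84 in Vehicle 1, 2 and 3. The Retn ratio was thus lower in each EPO library and the Scd1 ratio higher, with a median difference over the 33 genes of 0.27. Relative to Plin1 instead, 16 members lay above in every EPO library and none below, against 78.3% and 0.0908% of all tested genes, with a median difference of 0.56. These ratios were not tested, and the number of genes on either side of Adipoq without overlap, 8, was 22 without EPO 3. Leaving a library out can only keep or raise this number, and the share of all tested genes was not counted for those sets.

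**Figure D4:**
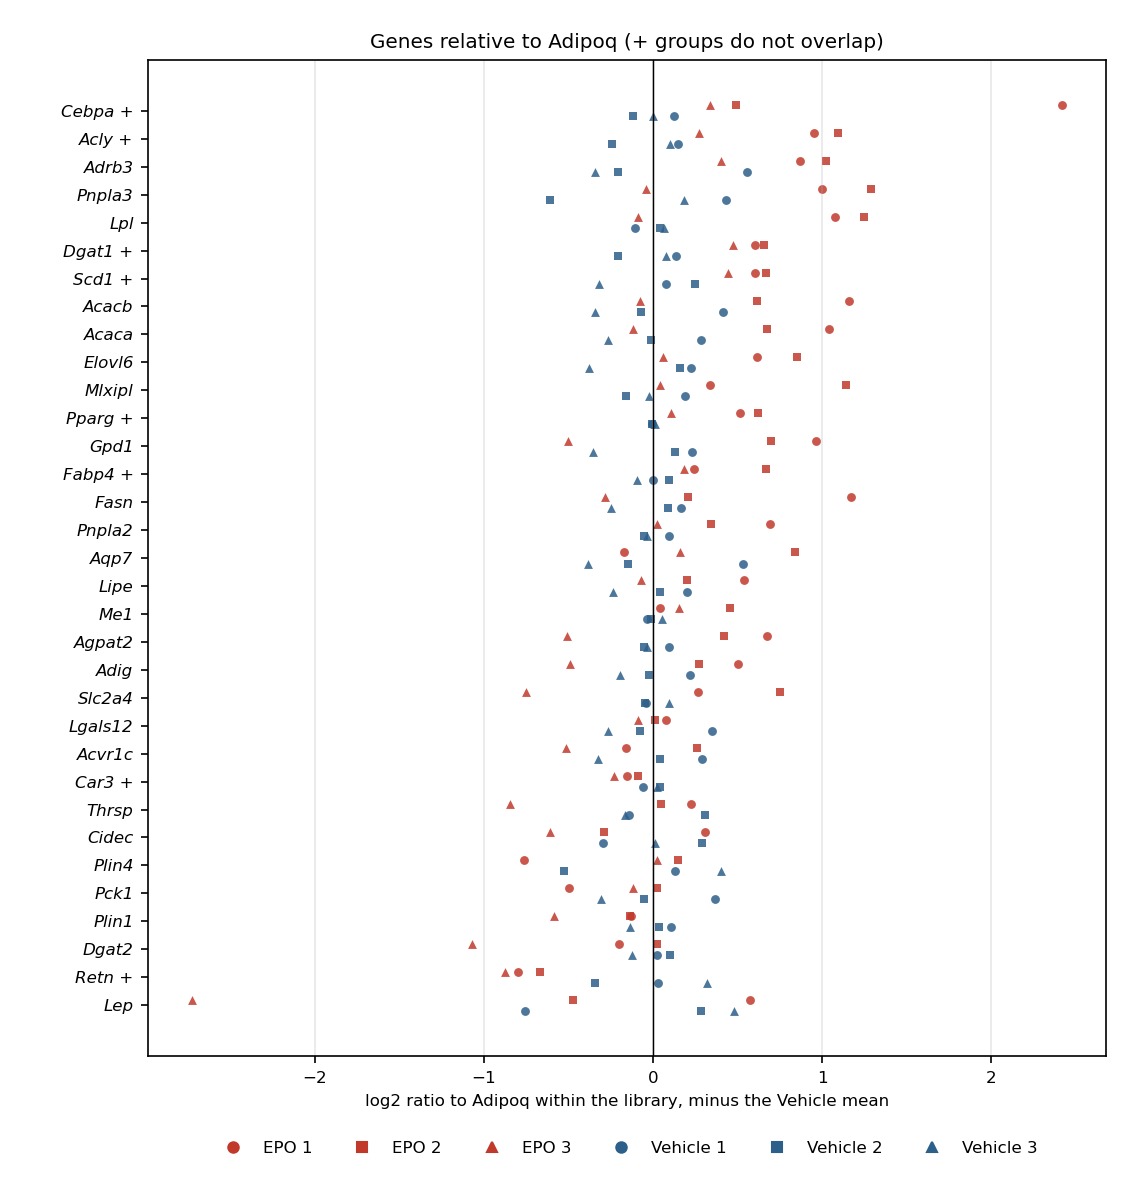
Log2 ratio of each gene to Adipoq within a library, minus the mean ratio of the Vehicle libraries, with EPO libraries in red and Vehicle libraries in blue, and a plus sign on genes whose groups do not overlap. Genes are ordered by the difference between group means, with Cebpa at the top and Lep at the bottom, and 8 genes carry the plus sign.

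Further genes of the same pathways were taken from 5 lists that share no member with the 34. Of 71 genes 69 were tested, 19 fell and 5 rose, with a median log2 fold change of -0.32, against the 10.1% lower and 12.9% higher over all tested genes; the number that rose is below that background. Among 15 tested genes of the droplet and of lipolysis 4 fell and 1 rose. Mgll, which completes lipolysis by splitting monoglycerides, fell (log2 fold change -1.26, SE 0.23, edgeR adjusted p = 0.0089). Adora1, an antilipolytic adenosine receptor, fell (log2 fold change -1.47, SE 0.33, edgeR adjusted p = 0.0191), a call that was lost without EPO 2, EPO 3, Vehicle 1 or Vehicle 2 (edgeR adjusted p from 0.0506 to 0.0685), and its exons overlap the muscle gene Mybph on the opposite strand. Hilpda, a hypoxia-induced inhibitor of Pnpla2, rose, with 20.2, 19 and 13.4 CPM in EPO 1, 2 and 3, against 7.43, 7.5 and 8.59 CPM in Vehicle 1, 2 and 3 (log2 fold change 1.16, SE 0.19, edgeR adjusted p = 0.00712). Plin2, the perilipin found on droplets of most cell types, was not called and had 382, 327 and 331 CPM in EPO 1, 2 and 3, against 252, 369 and 230.5 CPM in Vehicle 1, 2 and 3 (edgeR adjusted p = 0.336).

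Of 16 tested genes of fatty acid and triglyceride synthesis 6 fell and 2 rose. Fads2, a desaturase of polyunsaturated fatty acids, fell (log2 fold change -1.0, SE 0.11, edgeR adjusted p = 0.00262), as did Acss2, which makes acetyl-CoA from acetate (log2 fold change -1.13, SE 0.20, edgeR adjusted p = 0.00795). Lpin2, a phosphatidate phosphatase, rose (log2 fold change 1.0, SE 0.17, edgeR adjusted p = 0.0075), and so did Mogat2, a monoacylglycerol acyltransferase (log2 fold change 1.47, SE 0.37, edgeR adjusted p = 0.0275), whose call was lost without EPO 1, EPO 2, EPO 3, Vehicle 1 or Vehicle 3 (edgeR adjusted p from 0.0545 to 0.0907). Of 10 genes of fatty acid uptake and of the partners of Lpl 1 fell and 1 rose, which is near the background of all genes. Vldlr, the very low density lipoprotein receptor, fell, with 32.3, 35.8 and 34.5 CPM in EPO 1, 2 and 3, against 92.9, 115 and 78.9 CPM in Vehicle 1, 2 and 3 (log2 fold change -1.48, SE 0.16, edgeR adjusted p = 0.00231). Lipa, the lysosomal acid lipase, rose (log2 fold change 0.56, SE 0.14, edgeR adjusted p = 0.0287), a call that was lost without EPO 2, EPO 3, Vehicle 1, Vehicle 2 or Vehicle 3 (edgeR adjusted p from 0.0532 to 0.136). Cd36, a fatty acid transporter, was not called (log2 fold change -0.65, SE 0.29, edgeR adjusted p = 0.145).

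Among 13 further regulators 2 fell, a share near the background of all genes, and none rose. Klf15, a factor that promotes adipocyte differentiation and lipogenesis, had 26.2, 14.4 and 21.6 CPM in EPO 1, 2 and 3, against 68.1, 68.1 and 78.9 CPM in Vehicle 1, 2 and 3, and fell (log2 fold change -1.79, SE 0.22, edgeR adjusted p = 0.00289). Thra, a thyroid hormone receptor, fell (log2 fold change -0.86, SE 0.22, edgeR adjusted p = 0.0302), a call that was lost without EPO 1, EPO 2, EPO 3, Vehicle 1 or Vehicle 3 (edgeR adjusted p from 0.0518 to 0.0821). Ebf1, an early factor of the adipocyte lineage, was not called (log2 fold change -0.44, SE 0.21, edgeR adjusted p = 0.17). Srebf1, whose product SREBP-1 drives lipogenic enzymes, was not called (log2 fold change -0.30, SE 0.32, edgeR adjusted p = 0.538).

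Of 15 further secreted proteins, receptors and membrane proteins of adipocytes 6 fell and 1 rose. Rbp4, a retinol carrier released by adipocytes and liver, had 27.3, 29.1 and 41.7 CPM in EPO 1, 2 and 3, against 118, 93.5 and 104 CPM in Vehicle 1, 2 and 3, and fell (log2 fold change -1.69, SE 0.19, edgeR adjusted p = 0.00262). Retnla, a relative of resistin made by mouse adipose tissue and by macrophages, fell (log2 fold change -2.09, SE 0.31, edgeR adjusted p = 0.00454). Cfd (adipsin), a complement protease of the adipocyte, fell (log2 fold change -1.20, SE 0.33, edgeR adjusted p = 0.0371), a call that was lost without EPO 2, EPO 3, Vehicle 1, Vehicle 2 or Vehicle 3 (edgeR adjusted p from 0.0535 to 0.109). Mest, an imprinted gene that is induced in expanding mouse fat, rose. It had 22.5, 57.3 and 167 CPM in EPO 1, 2 and 3, against 2.82, 2.95 and 3.14 CPM in Vehicle 1, 2 and 3, and the EPO libraries spread widely, all above every Vehicle library (log2 fold change 4.79, SE 0.73, edgeR adjusted p = 0.00514), and without EPO 3 the log2 fold change was 3.75. Its exons overlap Copg2 on the opposite strand.

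Of 10 tested markers of brown adipocytes 4 fell and none rose, against 10.1% lower and 12.9% higher over all tested genes, and the count that fell ran from 0 (without EPO 2, Vehicle 1 or Vehicle 2) to 6 (without Vehicle 3) with a library left out. Ucp1, Cox7a1, Cox8b, Elovl3, Ppargc1a and Lhx8 were not called, and Lhx8 had a positive log2 fold change of 1.15. Together the 11 genes of the list took 0.0906%, 0.0796% and 0.0479% of the counts in EPO 1, 2 and 3, against 0.173%, 0.23% and 0.0765% in Vehicle 1, 2 and 3. Ucp1, the uncoupling protein that defines brown fat, had 527, 385 and 202 CPM in EPO 1, 2 and 3, against 813, 1049 and 297 CPM in Vehicle 1, 2 and 3. As in many white adipocyte genes, Vehicle 3 was low and the groups overlapped (log2 fold change -0.96, SE 0.49, edgeR adjusted p = 0.204). The 4 that fell were Kcnk3, a potassium channel (log2 fold change -1.26), Cidea, a droplet protein (-1.65), Slc27a2, an acyl-CoA synthetase (-1.69), and Dio2, the deiodinase that activates thyroid hormone (-1.01). Their edgeR adjusted p ran from 0.021 to 0.0474, and each call was lost without at least 1 library: Kcnk3 without EPO 2, EPO 3, Vehicle 1 or Vehicle 2 (edgeR adjusted p from 0.0584 to 0.0702), Cidea without EPO 2, EPO 3, Vehicle 1 or Vehicle 2 (edgeR adjusted p from 0.0781 to 0.0852), Slc27a2 without EPO 1, EPO 2, EPO 3, Vehicle 1 or Vehicle 2 (edgeR adjusted p from 0.0741 to 0.122) and Dio2 without EPO 1, EPO 2, Vehicle 1 or Vehicle 2 (edgeR adjusted p from 0.0696 to 0.148).

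Markers of other cell types were counted beside these genes, against 10.1% lower and 12.9% higher over all tested genes. Smooth muscle markers fell in 8 of 8 genes and skeletal muscle markers rose in 11 of 11, with the shares given above. Of the 12 macrophage markers 2 rose and 1 fell, with a median log2 fold change of 1.17 and 2 negative values. In 7 of them every EPO library lay above every Vehicle library and in 1 below, against 22.9% and 21% of all tested genes. Of 8 endothelial markers 3 rose and 1 fell. The endothelial markers took 0.114% ± 0.0132 with EPO and 0.104% ± 0.00296 with Vehicle of all counts (SD, n = 3 each). Markers of adipocyte progenitors and adventitial fibroblasts, cells that lie in and around perivascular fat, took 0.373%, 0.365% and 0.367% of the counts in EPO 1, 2 and 3, against 0.308%, 0.338% and 0.34% in Vehicle 1, 2 and 3. Of these 8 genes 2 rose (Dlk1 and Lum) and none fell. Hepatocyte markers were near 0: none of the 6 passed the filter, and Alb was at 0 in all EPO libraries and at most 0.272 CPM with Vehicle. Of 7 mammary and sebaceous epithelial markers 4 were tested and 2 fell, Krt18 and Awat1, while Csn2 was at 0 in every library and Krt5 and Krt14 did not pass the filter. Awat1 was near the floor, with 2, 1 and 1 counts in EPO 1, 2 and 3, against 17, 10 and 41 in Vehicle 1, 2 and 3. None of the 6 lymphocyte markers was called. The part of these cell types in the values of the 34 genes was not tested.

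**Figure D5:**
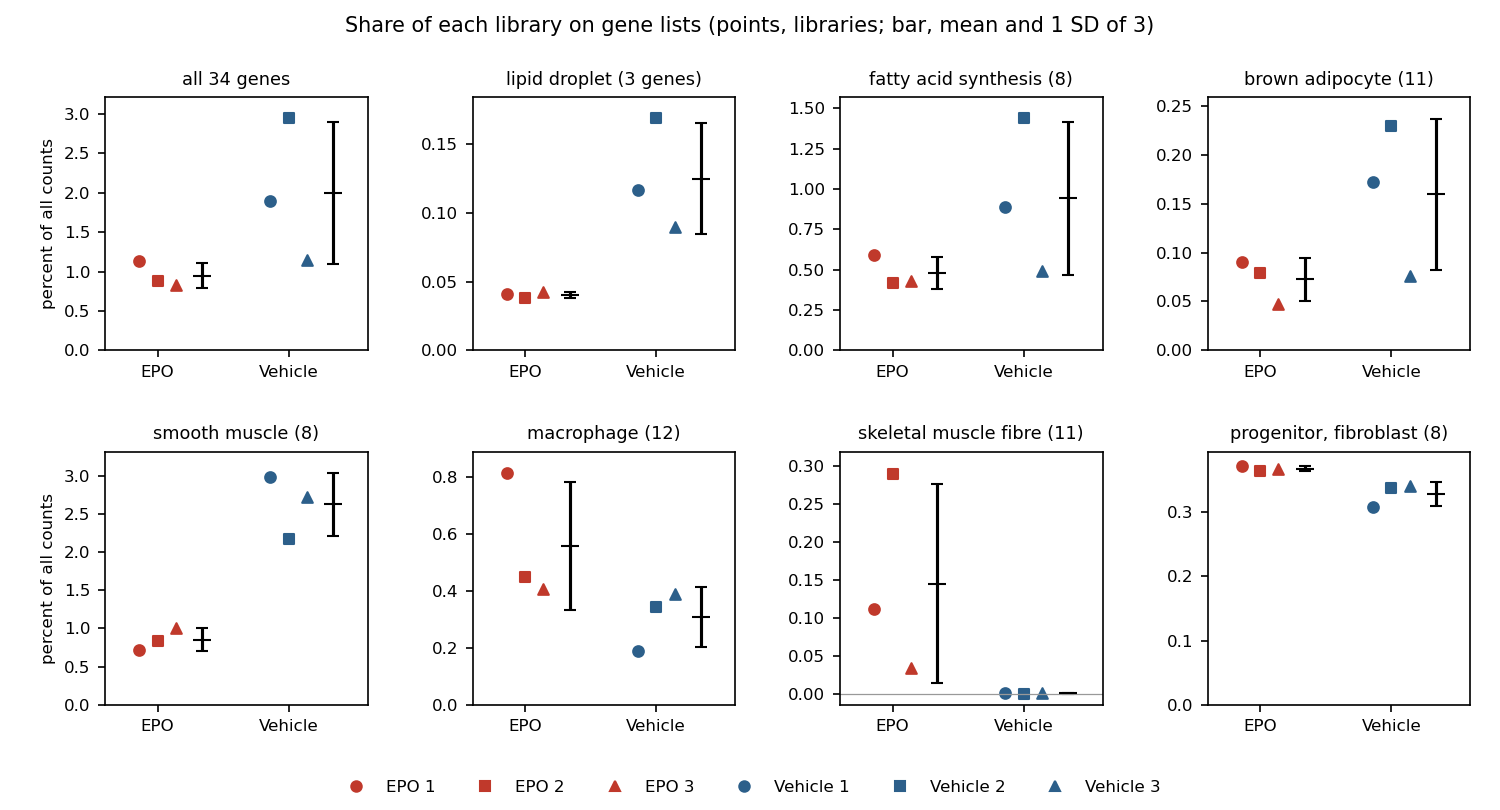
Percent of all counts on the 34 genes, on the lipid droplet and fatty acid synthesis genes among them and on 5 marker lists, one point per library, EPO left and Vehicle right, with the mean and 1 SD of 3 libraries. The adipocyte, brown adipocyte and smooth muscle panels are lower with EPO in the mean, and Vehicle 3 lies nearest the EPO libraries in the adipocyte panels.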

How the data were processed

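Total RNA was made into NEBNext Ultra libraries and read from both ends on a HiSeq, per the labels' protocols. CASAVA 1.8, TopHat2 2.0.6 and the build mm10 appear in the submitters' processing notes, but the software that counted reads, the annotation and the handling of strand are not given in the sources. The authors deposited raw counts for each Ensembl gene, whole numbers with unequal column totals, and the Con columns were taken as Vehicle. Symbols and coordinates (GRCm38, the assembly of mm10) came from GENCODE M21; 47224 of 47643 IDs matched and 419 did not.

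In R 4.3.3, edgeR 4.0.16 was run with filterByExpr, TMM scaling and a two-sided quasi-likelihood test with group as the only term, adjusted by the Benjamini-Hochberg method over 16522 genes; 31121 genes were filtered out. The SE of a log2 fold change is its size over the square root of F. The common biological coefficient of variation was 0.244. Each adjusted p named edgeR comes from this fit or, where libraries are left out, from the same fit on the rest. Other settings were size factors by median of ratios, library size alone, no filter, at least 1 CPM in 3 libraries, DESeq2 1.42.0, limma-voom (limma 3.58.1), the replicate number as a block, a fit without haemoglobin, mitochondrial and skeletal muscle genes, each library left out and, added after seeing the data, EPO 1 and EPO 2 left out together. The main fit was also read at an adjusted p under 0.1. On simulated counts for 16270 genes of this comparison the test called 41 of 100 genes set to a 2-fold change and 90 of 100 set to a 4-fold change, and 7 of its 138 calls were false. No other gene was changed in the simulation, whereas 23% of all tested genes were called in the data. The same unadjusted p thus gives a higher adjusted p in the simulation, and its recovery does not carry over to this comparison. No libraries were duplicates: the chi-square per degree of freedom between libraries of a group was 37.1 or more.

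The members and lists were chosen with earlier results of these data known. All 34 members are named, and from each further list the 3 tested genes of smallest p; Mogat2, Cfd, Plin2, Srebf1 and the brown and other marker genes were named after their values were seen. As the strand setting is unknown, counts are uncertain for members whose exons overlap a gene on the opposite strand (Acvr1c, Adrb3, Agpat2, Cebpa, Elovl6, Gpd1, Lipe, Me1, Mlxipl and Plin4) or on the same strand (Pnpla3). Among the further genes named this also holds for Acss2, Mgll, Mogat2, Srebf1, Thra, Dio2, Kcnk3 and Slc27a2. Gene counts carry sampling error and the spread between 3 libraries per group, and no molecular identifiers are named.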

Additional observations from a re-analysis of the deposited data

How the results depend on the processing

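Of the 34 genes only Cebpa changed sign in any setting tried, but the number called depended on the libraries and the tool. The tools also differed over all genes, with 2240 called lower by DESeq2 and 1588 by limma-voom, against 1671 in the main fit. Against 16 of 34 genes called lower, 25 were called with DESeq2, 12 with limma-voom, which lost Dgat1, Pparg, Acvr1c and Adig, and 2 without EPO 1 and EPO 2 together, and the count ran from 5 to 25 when each library was left out in turn. Over all genes, 1671 were lower and 2133 higher; without EPO 1 and EPO 2 these were 463 and 1085, and with each library left out in turn they ran from 699 (without Vehicle 1) to 2016 (without EPO 1) and from 936 (without Vehicle 1) to 2265 (without EPO 1). The number of members whose ratio to Adipoq separated the groups, 8, was 16 for the ratio to Plin1 and 8 to 22 (without EPO 3) with a library left out. With fewer libraries this number cannot fall, so its range does not measure how stable it is. The difference in the share of counts on the 34 genes was -1.05 percentage points, and ran from -1.47 (without Vehicle 3) to -0.572 (without Vehicle 2). The log2 fold change of Cebpa, 0.07, became negative with limma-voom (-0.28), with the replicate block (-0.26), without EPO 1 (-1.05), without Vehicle 3 (-0.17) and without EPO 1 and EPO 2 (-0.92), and ran from -1.05 to 0.44 with a library left out. The cause of these shifts was not tested. With the replicate number as a block, 14 members, 1254 genes lower and 1630 higher were called. After the group means were taken out, same-numbered libraries correlated at -0.0088, -0.0098 and 0.127. Pairs of unlike number correlated at -0.101 to 0.12. With 3 libraries a group these values cannot decide whether the numbers pair the libraries. Over the other settings the called members kept the call in 193 cases and lost it in 63. Those not called passed in 47 cases and stayed uncalled with the same sign in 236. These settings include the main fit read at an adjusted p under 0.1, where no called member can lose its call. The 6 members that passed there did so by the looser threshold alone. The 3 libraries a group limit the precision. The simulation recovered 41 of 100 2-fold changes, but with far fewer changed genes than were called here, so this is not the recovery for these data.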

Other observations

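Within the EPO group most members were highest in EPO 1, and a few followed another order. Of the 34 genes 4 were highest in EPO 3 and 4 lowest in EPO 1. Plin4, Pck1 and Me1 were both, with the values given above. Of the further pathway genes, Angptl4, an inhibitor of lipoprotein lipase that PPARs induce, had 80.2, 154 and 209 CPM in EPO 1, 2 and 3, against 113, 80.2 and 43.7 CPM in Vehicle 1, 2 and 3, and of the brown adipocyte markers Dio2 had 20, 31.4 and 42.5 CPM in EPO 1, 2 and 3, against 59.8, 81.6 and 47.7 CPM in Vehicle 1, 2 and 3. These genes were picked after their values were seen, and the pattern was not tested.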
